A study of Rattus norvegicus with 5 samples.

Results

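The protein components of the cytosolic and the mitochondrial ribosome were followed over 4 rat hepatocellular carcinoma cell lines and 1 rat liver, each measured on 1 CodeLink whole-genome array. All 140 probes whose platform symbol begins with Rpl, Rps, Mrpl or Mrps and a digit, or with Rplp or Rpsa, were taken, out of 33849 probes on the array, and Rps6k kinase genes were left out. They stand for 122 gene entries, of which 61 belong to the cytosolic set (73 probes) and 61 to the mitochondrial set (67 probes). The high-metastatic lines were N1 and L2 and the low-metastatic lines were C5F and C6. The labels trace the lines to liver tumours of male F344 rats aged 31 weeks, which had received N-nitrosomorpholine and diethylnitrosamine. The liver was the untreated control tissue of a male SD rat aged 50 weeks. Each line was measured once, so the replicates of a class are different cell lines and a p-value measures the spread between the lines of a class. Culture, strain, age, treatment and malignancy all differ between the lines and the liver and cannot be told apart.

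Ribosomes are built from RNA and protein in 2 subunits, a large one that joins amino acids and a small one that reads the messenger RNA. The cytosolic ribosome makes nearly all proteins of the cell, and its protein genes (Rpl for the large subunit, Rps for the small) are among the most strongly transcribed in growing cells. Their transcripts typically begin with a C and an unbroken stretch of pyrimidines, the 5′ terminal oligopyrimidine tract through which mTOR signalling sets their translation. The mitochondrial ribosome makes only the few respiratory chain subunits encoded in mitochondrial DNA, and its proteins (Mrpl and Mrps) are encoded in the nucleus, made in the cytosol and imported.

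The DNA around the transcription starts of both sets was compared first. RefSeq promoter windows of the GRCr8 assembly, which run 250 bases before to 50 bases after each gene's start, were found for 43 of the 51 cytosolic and 52 of the 61 mitochondrial genes with a single symbol. The sequences that follow show 50 bases before and 20 bases after the annotated start. The 6 cytosolic genes were chosen to show windows with and without a pyrimidine run at that start. The 5 mitochondrial genes were chosen to show the motifs found there. Capitals mark the pyrimidine run in Rplp0, Rplp1, Rpl10, Rps15 and Rps24, the TATAAA of Rplp0, AAGATGGC in Mrpl37, Mrps7 and Mrps18a and CCGGAAG in Mrps18a or its reverse complement in Mrps18b. Rpsa and Mrps15 hold none of the searched letters in the stretch shown.
Rplp0 (chr12:46718371-46718440, minus strand): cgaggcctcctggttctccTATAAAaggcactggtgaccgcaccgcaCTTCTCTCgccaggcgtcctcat
Rplp1 (chr8:71290853-71290922, minus strand): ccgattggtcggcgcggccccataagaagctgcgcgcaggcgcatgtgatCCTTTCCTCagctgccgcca
Rpl10 (chrX:157205800-157205869, plus strand): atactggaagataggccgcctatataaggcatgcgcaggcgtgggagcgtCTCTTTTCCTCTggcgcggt
Rps15 (chr7:10068096-10068165, minus strand): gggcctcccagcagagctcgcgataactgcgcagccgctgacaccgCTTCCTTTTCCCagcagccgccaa
Rps24 (chr16:96467-96536, plus strand): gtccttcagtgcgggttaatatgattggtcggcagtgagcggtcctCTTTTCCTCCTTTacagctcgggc
Rpsa (chr8:128728829-128728898, plus strand): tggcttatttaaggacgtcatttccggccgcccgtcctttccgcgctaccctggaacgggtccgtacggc
Mrpl37 (chr5:127074948-127075017, minus strand): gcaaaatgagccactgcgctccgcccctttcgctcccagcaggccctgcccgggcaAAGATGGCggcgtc
Mrps7 (chr10:101342592-101342661, plus strand): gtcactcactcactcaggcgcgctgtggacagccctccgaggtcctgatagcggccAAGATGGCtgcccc
Mrps18a (chr9:22367361-22367430, minus strand): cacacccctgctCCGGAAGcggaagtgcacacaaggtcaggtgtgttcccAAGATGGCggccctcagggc
Mrps18b (chr20:2842956-2843025, plus strand): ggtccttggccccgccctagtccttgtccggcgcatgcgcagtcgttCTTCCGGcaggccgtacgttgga
Mrps15 (chr5:143606091-143606160, plus strand): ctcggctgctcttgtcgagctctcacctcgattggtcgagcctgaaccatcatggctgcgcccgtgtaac

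A pyrimidine run was counted where a C within 5 bases of the annotated start was followed by at least 5 more pyrimidines on the gene's own strand. It was present in 23 of 43 cytosolic promoters (53.5%) and in 6 of 52 mitochondrial promoters (11.5%), beside 9.91% of the 33469 windows in the table. The mitochondrial set therefore lay close to the level of all genes on this feature. A start annotated some bases off would hide a run, so a gene without a counted run may still carry the tract. Capitals of a run begin at the first C that met this rule, so pyrimidines before it stay in lower case. The core letters of YY1 sites, AAGATGGC, searched on both strands, occurred in 12 mitochondrial promoters (23.1%) and 3 cytosolic ones (6.98%), against 3.17% of all windows. Respiratory chain genes, another nuclear-encoded mitochondrial group, held it in 22.4% of their windows. CCGGAAG, the core of ETS factor sites, was found on either strand in 27.9% of cytosolic and 32.7% of mitochondrial promoters, against 8.75% of all windows. CACGTG, the E box bound by MYC, and TATAAA, the TATA box, were in 6.98% and 11.6% of cytosolic and in 11.5% and 13.5% of mitochondrial windows. All windows held CACGTG in 6.42% and TATAAA in 14.2%. A match describes the letters only, and factor binding was not measured here. The searched motifs may overlap one another, and each promoter was counted once per motif, however many sites it held.

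**Figure D1:**
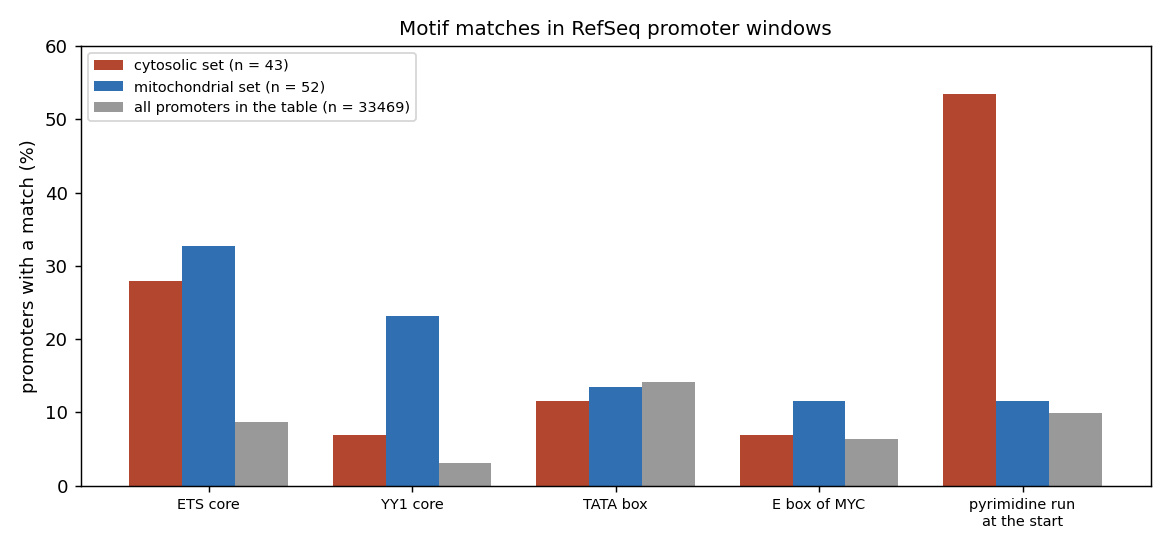
Share of promoter windows (percent, vertical axis) that hold each of 5 sequence features, for the cytosolic set (43 windows), the mitochondrial set (52) and all 33469 windows of the RefSeq table. The pyrimidine run reaches 53.5% in the cytosolic set, and the YY1 core 23.1% in the mitochondrial set.

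Detection limited what could be said of each set. Spots were called by the scanner software as above or near background, and a probe was kept if the liver spot, or no fewer than 2 of the 4 line spots, exceeded background. This left 51 of 73 cytosolic probes (46 of 61 gene entries) and 60 of 67 mitochondrial probes (56 of 61). The cytosolic set had 14 genes that were above background on no array, among them Rps3, Rps4x, Rps13, Rpl8, Rpl14, Rpl24, Rpl35, Rpl41 and Rplp2, most of which code for core proteins of every ribosome. Their low signals therefore say nothing about whether the transcripts were present. Mrpl12, the protein of the mitochondrial stalk, was near background on all 5 arrays, and Mrps18c was above background in C6 alone. Irregular spots removed further genes. In liver 14 of the 67 mitochondrial probes (20.9%) and 6 of the 73 cytosolic probes (8.22%) were irregular, beside 7.67% of all probes, so that 11 of the 56 mitochondrial genes kept, among them Mrpl1, Mrpl40 and Mrps17, could not be set against liver. No member spot was called saturated. Of the cytosolic entries, 11 probes carry several symbols and are counted but not named, and Rpl17-ps16 is a pseudogene in RefSeq.

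The liver array showed 7 of 8 hepatocyte markers above background, with the remaining one unusable, and all 6 Kupffer cell and macrophage markers. Hepatocyte markers were above background for 5 of 8 genes in C5F and for 0 of 8 in C6, N1 and L2. The defining transcripts of hepatocytes were thus not detected in these 3 lines. Of 7 markers of dividing cells, 7 were above background in C5F, 6 in each other line and 2 in liver. Those above background summed to 1094 to 1539 normalised units in the lines and 135.1 in liver, where N1 and C6 each lacked 1 marker with an unusable spot. Kupffer cell markers summed to 36.1 to 56.1 units in the lines and 4418 in liver. Tissue RNA is a mixture, in which fewer cells of a type and less RNA per cell cannot be told apart, and the part of cell division or of the cell mixture in the results that follow was not tested.

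The first comparison asked how the carcinoma lines differ from liver. Cytosolic ribosomal protein transcripts were higher in the lines, whereas no mitochondrial ribosomal protein gene passed the test. Among the 35 tested cytosolic genes above background in liver, 16 rose, 0 fell and all 35 had a fitted difference above 0. Another 3, near background in liver and kept only through the lines, bring the count to 19 of 38, but such genes had to differ and lend it no support. The difference between the sets itself is described and was not tested. Of 37 mitochondrial genes, 33 of them above background in liver, 0 passed in either direction and 27 had a difference above 0. Over all 11949 probes tested, 9.01% were called higher and 9.38% lower (limma, Benjamini-Hochberg adjusted p under 0.05), and 55.1% lay above 0. Among the 8438 probes above background in liver, these shares were 3.37% higher and 13.3% lower. At an unadjusted p under 0.05, 34 of the 38 cytosolic and 1 of the 37 mitochondrial genes were higher, beside 21.4% of all probes, and 0 genes of either set were lower, beside 17.2%. The count of 19 calls depends on each line: no fit that left out 1 line kept it. Such a fit has only 1 line in a class, and calls over all probes fell too. Arrays were also scaled to the median of probes above background or to the 75th percentile, in place of quantile normalisation. With each, 5 cytosolic genes passed, where 895 and 1027 of all 11949 probes were called higher. The cytosolic median was 1.40 and 1.33.

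In size, the median fitted difference (the mean of the classes minus liver, on the log2 scale) was 1.66 over the cytosolic genes and 0.25 over the mitochondrial genes, with 0.15 over all probes. The middle 50% of cytosolic genes lay between 1.44 and 1.85, a narrow band beside that of all probes, -0.79 to 0.995. The cytosolic median was 1.64 over the 35 genes above background in liver and 1.51 over all 53 cytosolic genes without any filter. The mitochondrial median was 0.25 over the 33 genes above background in liver and 0.28 over 41 genes without a filter. Large and small subunits had similar medians. The cytosolic large subunit had a median of 1.61 with 9 of 19 genes called, and the small subunit 1.66 with 9 of 17. In the mitochondrion the large subunit median was 0.29 over 23 genes and the small subunit median 0.20 over 14.

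**Figure D2:**
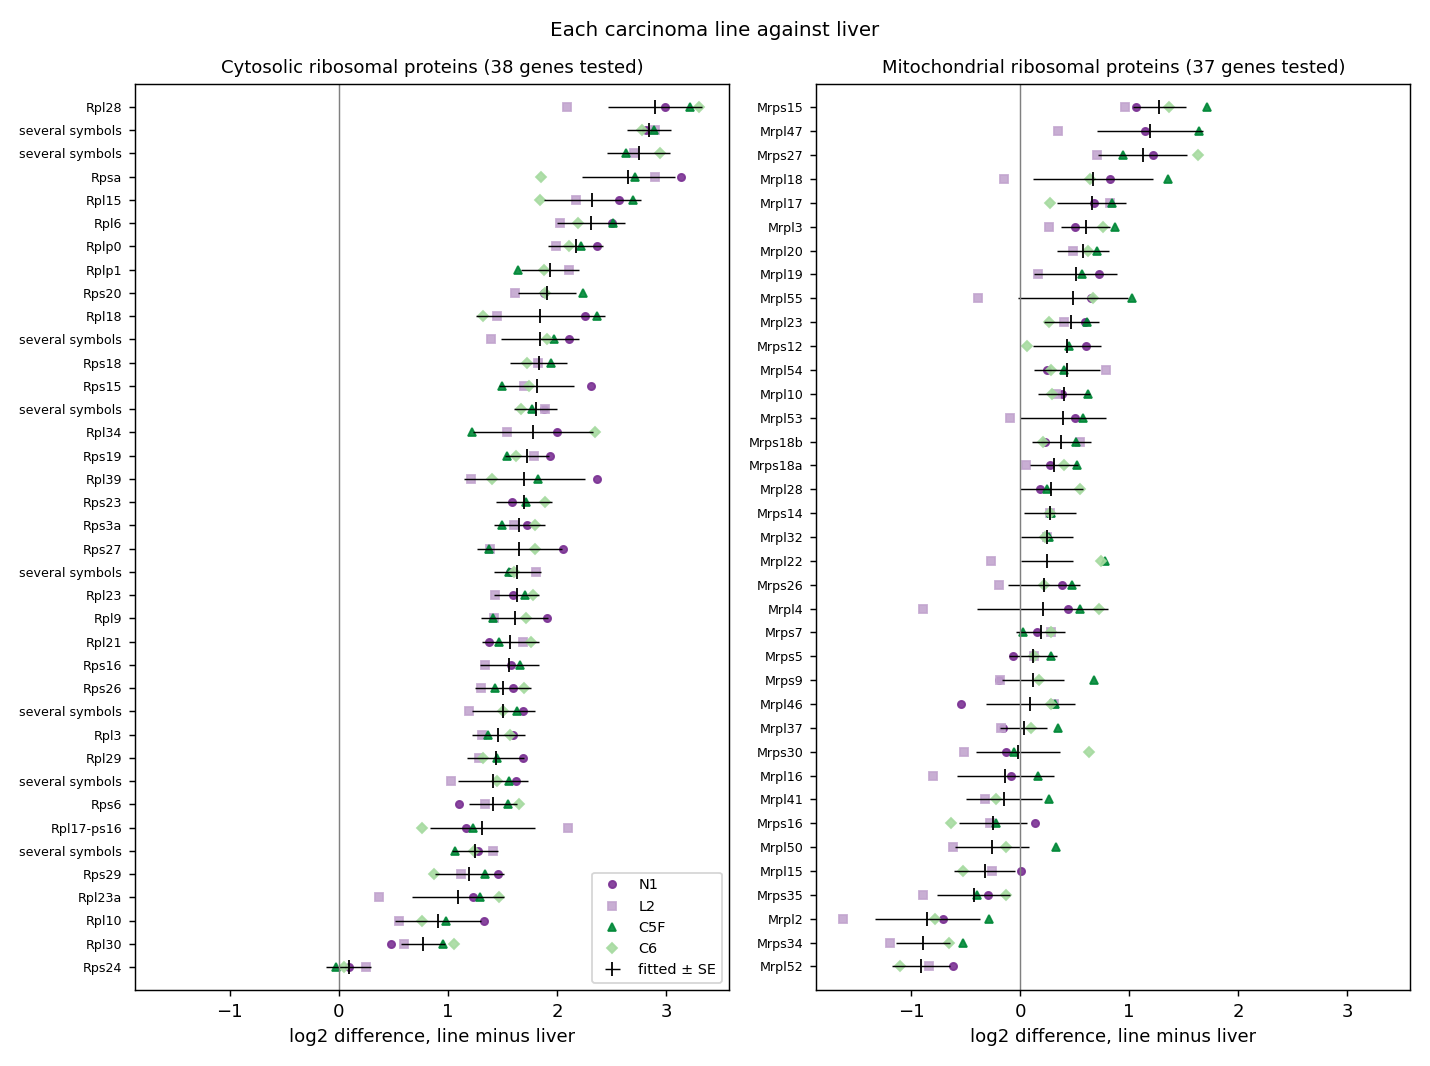
Log2 difference of each carcinoma line from liver (horizontal axis) for each tested gene (vertical axis, ordered by the fitted difference), with 1 point per line and the fitted difference ± SE in black. Nearly all cytosolic points lie right of 0, around the median of 1.66, and Rps24 lies at 0.09. Mitochondrial genes lie on both sides of 0, with fitted differences from -0.91 for Mrpl52 to 1.19 for Mrpl47 where liver was above background. For the 7 genes near background in liver, among them Rpl28, Mrps15 and Mrps27, the plotted values are no measured fold.

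The shift was present line by line. Over the 33 cytosolic genes measured on all 5 arrays, the median difference from liver was 1.73 in N1, 1.43 in L2, 1.54 in C5F and 1.67 in C6, which is 3.31-fold, 2.69-fold, 2.91-fold and 3.18-fold. Over the 22 such mitochondrial genes it was 0.26 in N1, 0.09 in L2, 0.52 in C5F and 0.28 in C6. The cytosolic median exceeded the mitochondrial one by 1.47 in N1, 1.34 in L2, 1.03 in C5F and 1.39 in C6. All 4 comparisons share the single liver array, so they are not independent of each other. Every line lay above liver in 32 of the 33 cytosolic genes, against 37.3% of all probes measured on 5 arrays. The exception was Rps24. In the mitochondrial set every line lay above liver in 10 of 22 genes and below it in 2 of 22, against 34.5% of all probes for every line below liver.

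The stalk of the cytosolic ribosome had a measurable signal for both Rplp0 and Rplp1. Rplp0, the base of the acidic stalk that recruits translation factors, had a log2 signal of 10.77 in N1, 10.39 in L2, 10.62 in C5F and 10.51 in C6, against 8.41 in liver. The 4 lines lay close together and did not overlap liver, and the fitted difference was 2.17 ± 0.25 (SE, adjusted p = 0.0248 by limma). Rplp1, a stalk protein that binds to Rplp0, read 12.44 in L2, 11.97 in C5F and 12.21 in C6, against 10.33 in liver, with the N1 spot left out as contaminated. Its difference of 1.94 ± 0.27 did not pass (limma adjusted p = 0.0532), but a second probe, bright and measured on all 5 arrays, gave 1.93 ± 0.33 and passed (limma adjusted p = 0.0424). The call for Rplp1 thus depends on the probe. Rplp2, the partner of Rplp1, was near background throughout.

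Rpsa, a small-subunit protein also known as the laminin receptor precursor, had the largest difference among genes above background in liver. Its log2 signals were 10.61 in N1, 10.37 in L2, 10.19 in C5F and 9.32 in C6, against 7.47 in liver. C6 was the lowest of the lines and still lay above liver, and the fit gave 2.65 ± 0.43 (limma adjusted p = 0.0391). Rps19, mutated in many people with Diamond-Blackfan anaemia, read 11.71 in N1, 11.57 in L2, 11.32 in C5F and 11.40 in C6, against 9.78 in liver. All lines were again above liver, by 1.72 ± 0.20 (limma adjusted p = 0.0248). Rps6, the substrate of the S6 kinases downstream of mTOR, had 10.92 in N1, 11.15 in L2, 11.36 in C5F and 11.47 in C6, against 9.81 in liver, a difference of 1.41 ± 0.22 (limma adjusted p = 0.0376). Rps20, which sits in the head of the small subunit, rose by 1.91 ± 0.27 (limma adjusted p = 0.0320), with lines between 10.12 and 10.75 and liver at 8.51. The lines overlapped liver in none of these genes.

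Large-subunit proteins gave the same picture. Rpl6 had a log2 signal of 12.41 in N1, 11.93 in L2, 12.42 in C5F and 12.10 in C6, against 9.91 in liver. The lines did not overlap liver, and the difference was 2.31 ± 0.31 (limma adjusted p = 0.0303). A much dimmer second probe of Rpl6 gave only 0.07, and another was near background, so the gene's value rests on its brightest probe. Rpl3, which lies next to the peptidyl transferase centre, read 11.32 in N1, 11.04 in L2, 11.09 in C5F and 11.30 in C6, against 9.73 in liver. Its difference was 1.46 ± 0.24 (limma adjusted p = 0.0414). Rpl23, one of the ribosomal proteins that can bind MDM2, rose by 1.63 ± 0.21 (limma adjusted p = 0.0280), with lines between 11.31 and 11.67 and liver at 9.89. Rpl28 was near background in liver and in L2, and the other lines read 4.42 in N1, 4.65 in C5F and 4.73 in C6. Its level was at least 1.37-fold higher in the lines, where the bound sets liver at the lowest signal called above background on that array. Its call (limma adjusted p = 0.0348) is one of the 3 that rest on genes kept through the lines alone.

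Outside the naming rule, and chosen after their values were seen, the other named genes that rose were Rps15, Rps3a, Rps26, Rpl21 and Rpl29, by 1.44 (Rpl29) to 1.81 (Rps15). A dim second probe of Rps15 gave 0.45. The remaining 5 of the 19 were probes with several symbols. Some genes with differences as large did not pass, with larger standard errors. Rpl15 read 10.50 in N1, 10.11 in L2, 10.63 in C5F and 9.78 in C6, against 7.94 in liver, and missed the threshold at 2.32 ± 0.44 (limma adjusted p = 0.0505). Rpl18 had 10.73 in N1 and 10.83 in C5F but 9.92 in L2 and 9.80 in C6, against 8.47 in liver, a difference of 1.85 ± 0.59 (limma adjusted p = 0.119). Rps27 read 13.00 in N1, 12.33 in L2, 12.31 in C5F and 12.74 in C6, against 10.94 in liver, and also missed (1.66 ± 0.39, limma adjusted p = 0.0706). Every line lay above liver in these 3 genes too.

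A few cytosolic genes differed less from liver. Rps24, a small-subunit protein, read 6.55 in N1, 6.70 in L2, 6.43 in C5F and 6.51 in C6, against 6.46 in liver. The lines overlapped liver, with a difference of 0.09 ± 0.20 (limma adjusted p = 0.773), and a second probe was near background everywhere. Its window also holds a counted pyrimidine run of 13 bases that begins 4 bases before the annotated start. The bases just before this run are pyrimidines too, so the unbroken stretch is longer. Rpl30, a large-subunit protein, had 4.79 in N1, 4.91 in L2, 5.27 in C5F and 5.37 in C6, against 4.31 in liver (0.77 ± 0.20, limma adjusted p = 0.0848). Rpl10, named after its values were seen, which joins the large subunit at a late step of its maturation, had 11.92 in N1, 11.14 in L2, 11.56 in C5F and 11.34 in C6, against 10.58 in liver (0.91 ± 0.39, limma adjusted p = 0.193). Between cytosolic genes with and without a counted pyrimidine run, medians were 1.66 over 15 genes (7 called) and 1.70 over 9 genes (6 called). Genes without a counted run may still carry the tract, so this does not compare genes with and without it.

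**Figure D3:**
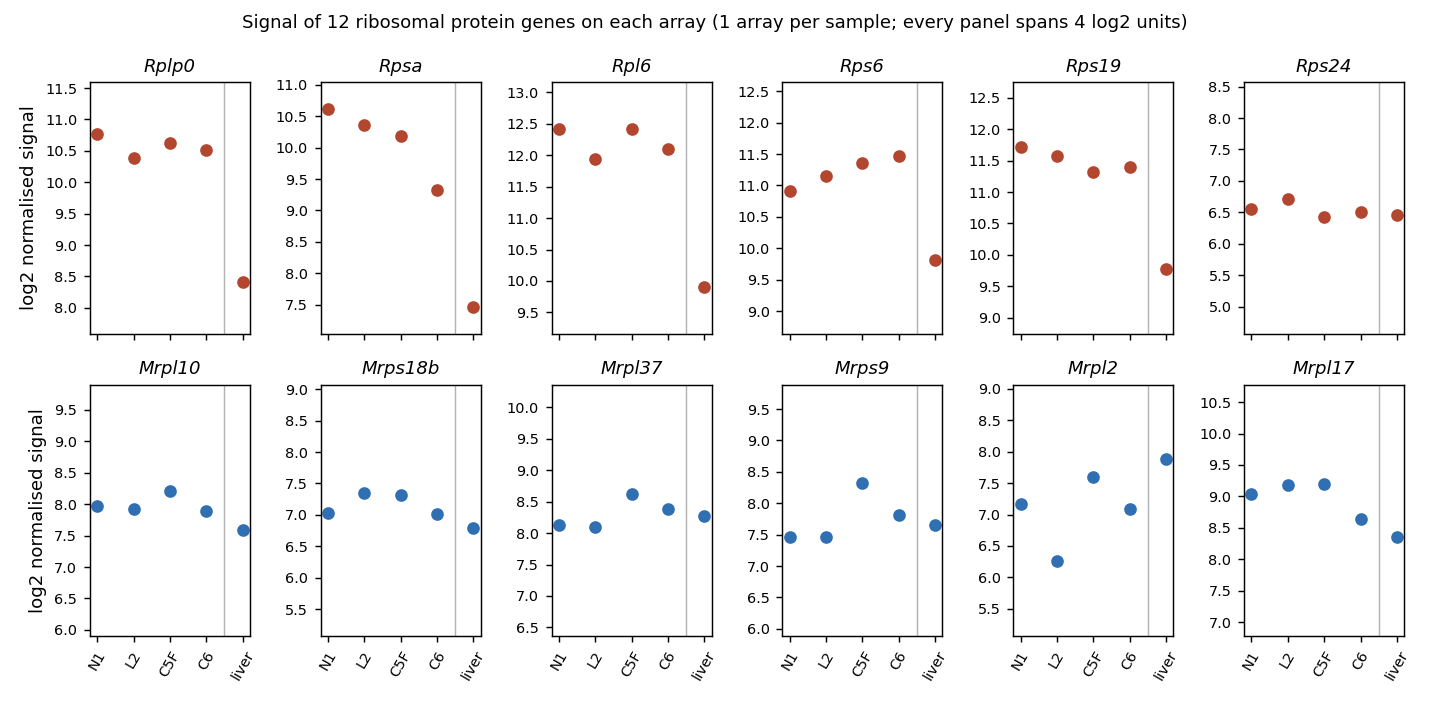
Log2 normalised signal (vertical axis) on each array (horizontal axis: N1, L2, C5F, C6 and liver) for 6 cytosolic genes in red and 6 mitochondrial genes in blue, every panel spanning 4 log2 units. For Rplp0, Rpsa, Rpl6, Rps6 and Rps19 all lines lie above liver. Rps24 and the mitochondrial genes lie closer to it, except Mrpl2 in L2 (6.26, against 7.88 in liver).

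The highest fitted differences among mitochondrial ribosomal proteins were those of Mrps15, Mrpl47 and Mrps27. Mrps15, related to bacterial S15, read 4.48 in N1, 4.39 in L2, 5.14 in C5F and 4.79 in C6 and was near background in liver. It was at least 1.78-fold higher in the lines and lay just outside the threshold (limma adjusted p = 0.0509), and its second probe was near background in liver and in 3 of the 4 lines. Mrps27 was likewise near background in liver, and its lines between 3.90 and 4.82 put it at least 1.36-fold higher, without passing the test (limma adjusted p = 0.147). Mrpl47 read 6.14 in N1, 5.34 in L2 and 6.63 in C5F, against 4.99 in liver, with an irregular spot in C6. Its difference was 1.19 ± 0.49 (limma adjusted p = 0.216).

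Other mitochondrial genes had smaller differences from liver. Mrpl17 read 9.03 in N1, 9.18 in L2, 9.20 in C5F and 8.63 in C6, against 8.36 in liver, a difference of 0.66 ± 0.31 (limma adjusted p = 0.224). Mrpl3, the mitochondrial relative of Rpl3, had 4.89 in N1, 4.64 in L2, 5.25 in C5F and 5.14 in C6, against 4.38 in liver (0.60 ± 0.22, limma adjusted p = 0.151). Mrpl10, the stalk base that corresponds to Rplp0, had 7.97 in N1, 7.92 in L2, 8.21 in C5F and 7.89 in C6, against 7.60 in liver. All lines lay above liver in these 3 genes, yet the Mrpl10 difference of 0.40 ± 0.24 was far smaller than the 2.17 of Rplp0. The variants Mrps18a and Mrps18b, which both descend from bacterial S18, had differences of 0.31 ± 0.22 and 0.38 ± 0.27, and Mrps12, a protein of the decoding centre, 0.43 ± 0.31 with L2 left out. None of these passed the test.

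Below 0 lay 10 of the 37 mitochondrial genes. Mrpl52 read 6.81 in N1, 6.59 in L2 and 6.32 in C6, against 7.42 in liver, with C5F irregular (-0.91 ± 0.26, limma adjusted p = 0.138). Mrps34, a protein that bacterial ribosomes lack, read 6.73 in L2, 7.40 in C5F and 7.28 in C6, against 7.92 in liver, with N1 irregular (-0.89 ± 0.25, limma adjusted p = 0.130). Mrpl2, related to bacterial L2, had 7.17 in N1, 6.26 in L2, 7.60 in C5F and 7.09 in C6, against 7.88 in liver (-0.85 ± 0.48, limma adjusted p = 0.280). Every usable line lay under liver in these 3 genes. Mrps35, Mrpl15, Mrpl50, Mrps16, Mrpl41, Mrpl16 and Mrps30 had smaller values, between -0.43 and -0.02, of which Mrpl41 and Mrps30 changed sign under both other scalings. The probes of Mrpl50 differed in sign, with -0.26 from the brighter and 0.52 from the dimmer one.

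Genes that work with these proteins are described from the same fit. Factors of RNA polymerase I and ribosome assembly, a list of 56 genes on the array, had 35 tested members, of which 11 were called higher and 0 lower, with a median of 1.31. Over the 27 above background in liver, 8 rose, 0 fell and the median was 1.27. Brix1, needed for large-subunit maturation, read 6.72 in N1, 6.33 in L2, 7.32 in C5F and 7.43 in C6, against 4.56 in liver, and rose by 2.39 ± 0.26 (limma adjusted p = 0.0218). Dkc1, the pseudouridine synthase of box H/ACA particles, and Rrp15 were near background in liver and kept only through the lines, with levels at least 1.93-fold and 2.16-fold higher there. The listed respiratory chain subunits, encoded in the nucleus like Mrpl and Mrps, had 0 of 44 genes called (1 at an unadjusted p under 0.05) and a median of 0.04. Mitochondrial translation factors and mitoribosome assembly factors had 0 of 11 called among genes above background in liver (1 at an unadjusted p under 0.05), with 10 differences above 0 and a median of 0.33. With 3 more genes kept through the lines alone, 1 of 14 was called, Yars2, the mitochondrial tyrosine tRNA synthetase, which was near background in liver, C5F and N1, and the median was 0.67.

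Ribosomal proteins that carry other names gave few values. Rack1, a scaffold on the small subunit, had a difference of 1.33 ± 0.51 (limma adjusted p = 0.203). Dap3, a GTP-binding protein of the small mitochondrial subunit, had 1.10 ± 0.30 (limma adjusted p = 0.128), and Chchd1 and Gadd45gip1 had 0.42 and 0.39. None of these genes passed the test.

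**Figure D4:**
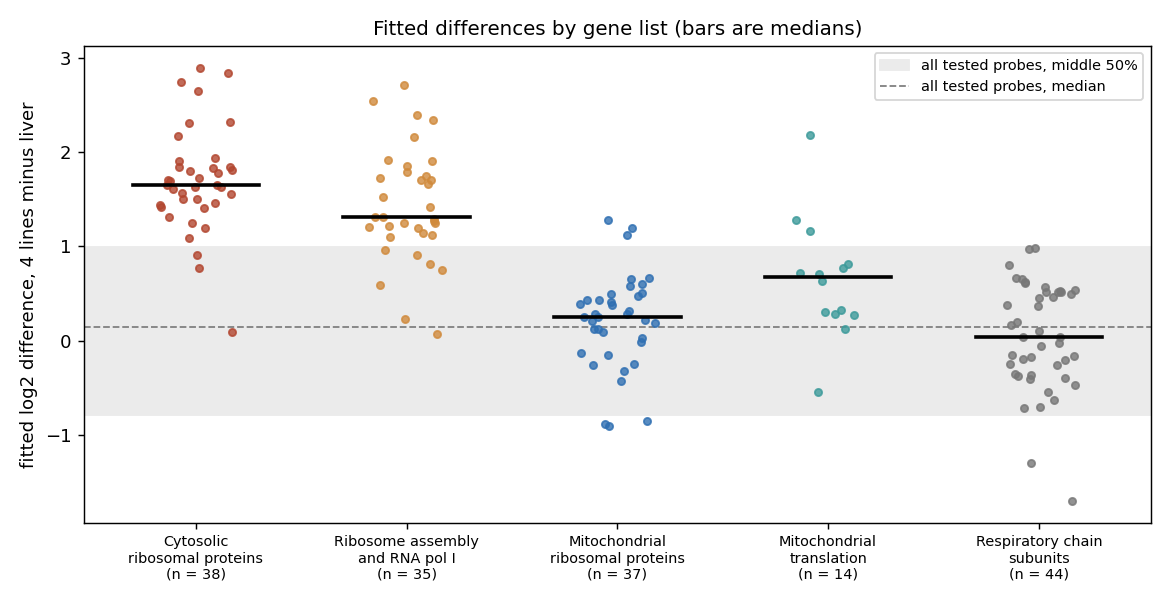
Fitted log2 difference between the 4 lines and liver (vertical axis) for each tested gene of 5 lists, with black bars at the medians, a dashed line at the median of all tested probes (0.15) and grey over their middle 50%. The cytosolic ribosomal proteins (median 1.66) and the assembly factors (1.31) lie mostly above the grey band, and the mitochondrial ribosomal proteins (0.25) and respiratory chain subunits (0.04) mostly inside it.

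The second comparison set the high-metastatic lines against the low-metastatic lines. No ribosomal protein gene of either set passed the test, as was the case for all 13741 probes tested (limma, 0% called). At an unadjusted p under 0.05, 0 of 43 cytosolic and 2 of 48 mitochondrial genes were past the threshold, beside 7.31% of all probes (3.62% lower in the high-metastatic lines, as both these genes were). The cytosolic median difference, high minus low, was 0.02, with 20 of 43 genes below 0. It became -0.35 and -0.30 with the other scalings, which moved the median of all probes to -0.12 and -0.085, so that the sign of the cytosolic median depends on the scaling. The mitochondrial median was -0.26, with 35 of 48 below 0, beside 50% of all probes.

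Among 28 mitochondrial genes measured in all 4 lines, both high-metastatic lines lay below both low-metastatic lines in 12, and above them in 1. Over all probes these shares were 19.2% and 17.5%. Among 38 cytosolic genes the counts were 7 and 6. The lines did not contribute evenly. L2 was the lowest line in 16 of the 28 mitochondrial genes (32.2% of all probes) and C5F the highest in 17 (23% of all probes). The median mitochondrial difference was -0.04 for N1 minus C6, -0.21 for N1 minus C5F, -0.31 for L2 minus C6 and -0.46 for L2 minus C5F. Of these pairs, L2 and C5F lay furthest apart and N1 and C6 closest. Within the classes, the median was -0.24 for C6 minus C5F, with C6 lower in 23 of 28 genes. For L2 minus N1 it was -0.22, with L2 lower in 21. Lines of the same class thus differed by as much as N1 did from C5F or C6.

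In the cytosolic set N1 was the highest line in 16 of 38 genes (28.9% of all probes) and L2 the lowest in 15. Between these 2 high-metastatic lines the median difference, L2 minus N1, was -0.36, with L2 lower in 28 of 38 genes. Over all probes it was -0.09, with L2 lower in 55.6%.

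**Figure D5:**
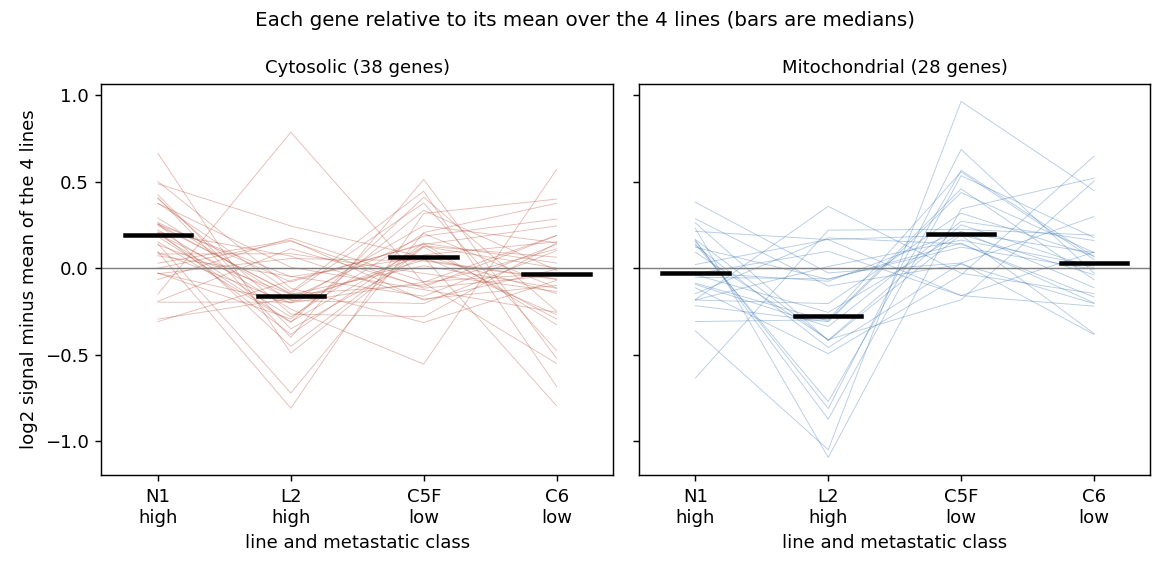
Log2 signal of each gene minus its mean over the 4 lines (vertical axis) in N1, L2, C5F and C6 (horizontal axis), with 1 thin line per gene and black bars at the medians. Mitochondrial genes sit lowest in L2 (median -0.28) and highest in C5F (0.20), and cytosolic genes highest in N1 (0.19) and lowest in L2 (-0.16).

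Mrpl1, which builds the mobile L1 stalk of the mitochondrial large subunit, showed the widest separation of the classes. Its log2 signal was 7.64 in N1 and 6.95 in L2, against 8.97 in C5F and 8.45 in C6. The classes did not overlap, and the difference was -1.41 ± 0.37, with an unadjusted p of 0.024 that did not survive adjustment (limma adjusted p = 0.670). Mrpl22, also named after its values were seen and related to a protein that lines the exit tunnel in bacteria, read 7.40 in L2, against 8.45 in C5F and 8.42 in C6, with N1 irregular (-1.03 ± 0.25, unadjusted p = 0.037, limma adjusted p = 0.670). Mrps9 had 7.46 in N1 and 7.47 in L2, against 8.32 in C5F and 7.81 in C6 (-0.61 ± 0.26, limma adjusted p = 0.713), and its second probe gave -0.32. Mrps15 and Mrpl3 also had both high-metastatic lines below both low-metastatic lines, at -0.53 and -0.43.

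Mrpl40 was the 1 mitochondrial gene with the opposite order. It read 7.78 in N1 and 7.73 in L2, against 7.40 in C5F and 7.34 in C6 (0.38 ± 0.17, limma adjusted p = 0.727). Its other probe gave -0.15, so the direction depends on the probe. In the cytosolic set, Rpsa had both high-metastatic lines above both low-metastatic lines (0.73 ± 0.38, limma adjusted p = 0.749), but its second probe, at 0.25, broke this order, with L2 at 8.43 under C5F at 8.93. Rpl30 and Rpl11 had the reverse order. Rpl11, part of the 5S particle that binds MDM2 when ribosome assembly fails, read 7.01 in both N1 and L2, against 7.45 in C5F and 7.35 in C6 (-0.39 ± 0.18, limma adjusted p = 0.714). Its liver spot was irregular, so that it has no value against liver.

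The assembly factors had mostly negative differences between the classes, as the mitochondrial set did. Of 48 tested, 41 had a difference below 0, beside 50% of all probes, and the median was -0.43. At an unadjusted p under 0.05, 6 were past the threshold, beside 7.31% of all probes, although none passed after adjustment. Brix1 had a difference of -0.85 ± 0.23 and Dkc1 of -0.80 ± 0.25. Both high-metastatic lines lay below both low-metastatic lines in 17 of the 27 assembly genes measured in all 4 lines and above them in 1. The all-probe shares were 19.2% and 17.5%. Values of this list under the other scalings are not given here. Respiratory chain subunits had a median of 0.02 with 23 of 54 below 0, and mitochondrial translation factors -0.08 with 12 of 20 below 0.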

How the data were processed

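Biotin-labelled cRNA, amplified from poly(A) RNA per the labels' protocols, was hybridised to CodeLink arrays, 1 array per sample. Per the file headers, spots were quantified with CodeLink Expression Analysis 4.1.0.29054. The deposited raw intensity, from which the authors' software had subtracted background, was used here. Its normalized intensity is the same value as that of the deposited series matrix (largest difference 0). A detection call accompanies each of the 35129 spots.

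Control spots were left out, irregular, contaminated and masked spots were set to missing, and intensities were quantile normalised with limma 3.58.1 (R 4.3.3, data.table, version 1.17.8), floored at 2.53 (the median of near-background spots) and taken to log2. One limma model with liver, low- and high-metastatic groups was fitted to 16377 probes kept, taking the spread of the single liver to equal that of lines in a class (at most 2 residual degrees of freedom, prior 1.46). The contrasts were the mean of the classes minus liver and high minus low. Tests were two-sided, adjusted by Benjamini-Hochberg over all probes tested at 0.05, and probes that left no residual degrees of freedom got no test. The number of arrays limits the precision.

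The brightest probe stood for a gene. A gene near background on every array of a group is given as "at least N-fold", with each such array set to the higher of its own signal and the lowest signal called above background there. Named genes were, per set, the 8 with the largest differences in each direction, the 5 with the widest class gap in each direction, a fixed list of ribosomal proteins, and 3 per other list. Genes named outside this rule are marked where their choice followed their values. The members and the lists, written from textbook knowledge, were chosen with earlier results of these data known. Promoters came from a RefSeq table (GRCr8, pandas 2.3.3), and plots were drawn with matplotlib 3.10.9. The procedure was tested on simulated data. Alternatives covered scaling, offset, filter, irregular spots, the series matrix, probe choice, grouping and leaving out each line, and 2 choices of members were added after seeing the data.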

Additional observations from a re-analysis of the deposited data

Results flagged for a closer look

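Both high-metastatic lines lay below liver and both low-metastatic lines above it for 2 mitochondrial genes, where 22 of the set were measured on all 5 arrays. The share of all probes with this order was not counted, so the 2 genes cannot be called unusual. Mrpl37 read 8.12 in N1 and 8.10 in L2, against 8.63 in C5F and 8.38 in C6, with liver at 8.28, and the class difference was -0.39 ± 0.20 (limma adjusted p = 0.740). Mrps9 read 7.46 in N1 and 7.47 in L2, against 8.32 in C5F and 7.81 in C6, with liver at 7.65, a class difference of -0.61 ± 0.26 (limma adjusted p = 0.713). Neither class difference passed the test, and the opposite directions against liver were not tested in themselves.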

How the results depend on the processing

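The direction of the cytosolic shift held under every alternative run, while the number of calls did not. With 1 liver and 2 lines per class, calls rest on few residual degrees of freedom. The cytosolic median against liver was 1.40 with arrays scaled to the median of probes above background, 1.33 with the 75th percentile, 1.43 with an offset of 50, 1.51 without the filter and 1.25 with the series matrix. In place of 19, the genes called higher were 5, 5, 9 and 3 under both scalings, no filter and the series matrix, and 30 of 41 with the 4 lines as one group. Over all probes, 895 and 1027 of 11949 were called higher under the scalings and 718 of 11949 with the series matrix. The all-probe counts were 623 of 28718 with no filter and 1459 of 13606 with the 4 lines as one group. Leaving out 1 line gave 0 (without C5F or without C6) to 2 (without N1 or without L2), where over all probes 0 to 132 were called higher, so that no call held in all 4 of these fits. Without the filter 2 cytosolic genes were called lower, Rpl35 and a probe of several symbols, both near background on all arrays. With irregular spots kept 1 mitochondrial gene, Mrpl51, was called higher (limma adjusted p = 0.0485), where 1850 of 16833 probes were called higher. It was near background in liver and kept only through C6 and L2, so its fitted 2.23 ± 0.42 is no measured fold. The difference between the set medians, 1.41, became 0.998, 1.02 and 0.998 under both scalings and the series matrix, and 1.19 to 1.41 without 1 line.

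Between the classes, scaling shifted the median of all probes to -0.12 or -0.085, and that against liver to 0.29 or 0.22. The cytosolic class median became -0.35 and -0.30 under the scalings and -0.16 with the series matrix, and without 1 line it ran between -0.15 (without N1) and 0.15 (without L2). The mitochondrial class median ran from -0.45, with the above-background scaling, to -0.13 over 14 alternatives. The difference of the class medians became 0.080 (75th percentile) and 0.043 (series matrix). Signs turned for Rps19 between classes (-0.10 and -0.062 under the scalings), Rps24 between classes (-0.0014), and against liver for Mrpl41 (0.11, 0.020 and, with irregular spots, 0.038), Mrps9 (-0.0083 without C5F to 0.24 without C6), Mrpl37 (-0.0040, -0.091 with the series matrix, -0.029 without C5F to 0.092 without C6) and Mrps30 (0.23, 0.16, 9.65e-05 with the offset, 0.13 with irregular spots, 0.072 with the series matrix, 0.082 without L2, and -0.19 without C6 to 0.15 without C5F). The cause of these changes was not tested. Of 388 named-gene values against liver 307 kept direction and side of the threshold, 62 lost the call, 5 gained it and 14 reversed, and of 140 between classes 137 kept both and 3 reversed. No paired analysis was possible because replicate numbers came from accession order and pair no samples.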
